A study of Mus musculus with 8 samples.

Results

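The probe sets described here are those the deposited table assigns to Plet1os, Plet1, Nxpe4 and Nxpe2, 4 of the 20667 gene symbols on the arrays and 7 of 45037 probe sets. Plet1os and Nxpe4 were picked because their knockout against wild-type difference had passed a limma test on these same arrays, so that their difference is given as a description and not as a test. Plet1 was added as the gene on the strand opposite Plet1os, and Nxpe2 as the close relative that lies at the Nxpe4 locus. The tissue was the tibial plateau of the mouse knee, in which joint cartilage was dissected together with the bone under it. The 4 knockout arrays came from mice labelled ANP32A KO at 8 weeks of age, and the 4 wild-type arrays from C57BL/6 mice of the same age, with 1 mouse per array per the file headers. No label names the strain of the knockout mice or the design of the knockout allele. Values are log2 RMA values (robust multi-array average), given as mean ± SD with n = 4 per group unless stated, and differences are knockout minus wild type.

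The proteins of the Nxpe genes carry a neurexophilin domain and a PC-esterase domain, and Nxpe2 and Nxpe4 are known mainly from the intestine. Plet1 encodes a cell surface glycoprotein first found in placenta that marks progenitor cells of the trophoblast, the thymic epithelium and the hair follicle. Plet1os is a long noncoding RNA, named for its place on the opposite strand of Plet1. All 4 genes lie on chromosome 9, as does the targeted gene Anp32a. In the RefSeq gene order, 140 genes with a probe set lie between Plet1os and Anp32a and 156 between Nxpe4 and Anp32a, while 15 lie between Nxpe4 and Plet1os.

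The windows from 250 bases before to 50 bases after each gene's start, from RefSeq on GRCm38.p6, are shown because the members of each pair differ in strand and start. Each is read 5′ to 3′ along its gene. Capitals mark 4 motifs in either orientation: TATAAA of the TATA box, then CCAAT of the CCAAT box, then GATAAG of GATA factors, and finally GGGCGG of Sp1-type factors. No overlap between these motifs occurs in the windows, and the build of the annotation was not matched to the arrays.
Plet1os, chr9:50504756-50505055, minus strand: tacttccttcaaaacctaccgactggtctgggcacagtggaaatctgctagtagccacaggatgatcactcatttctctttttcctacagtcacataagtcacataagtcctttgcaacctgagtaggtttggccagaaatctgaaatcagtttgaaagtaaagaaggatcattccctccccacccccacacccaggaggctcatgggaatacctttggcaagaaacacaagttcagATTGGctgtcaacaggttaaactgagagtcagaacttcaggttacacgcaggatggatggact
Plet1, chr9:50494275-50494574, plus strand: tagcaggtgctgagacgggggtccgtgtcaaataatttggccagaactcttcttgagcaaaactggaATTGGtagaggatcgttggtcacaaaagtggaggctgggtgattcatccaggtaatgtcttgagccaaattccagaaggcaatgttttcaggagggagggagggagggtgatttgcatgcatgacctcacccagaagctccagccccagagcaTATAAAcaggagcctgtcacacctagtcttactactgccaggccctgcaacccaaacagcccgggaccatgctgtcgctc
Nxpe4, chr9:48361791-48362090, plus strand: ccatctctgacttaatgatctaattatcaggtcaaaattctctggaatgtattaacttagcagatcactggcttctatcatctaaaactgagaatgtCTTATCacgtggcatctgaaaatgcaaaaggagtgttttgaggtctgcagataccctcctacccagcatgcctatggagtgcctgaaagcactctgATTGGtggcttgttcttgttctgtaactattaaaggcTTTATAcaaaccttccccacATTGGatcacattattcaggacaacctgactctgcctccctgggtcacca
Nxpe2, chr9:48340849-48341148, minus strand: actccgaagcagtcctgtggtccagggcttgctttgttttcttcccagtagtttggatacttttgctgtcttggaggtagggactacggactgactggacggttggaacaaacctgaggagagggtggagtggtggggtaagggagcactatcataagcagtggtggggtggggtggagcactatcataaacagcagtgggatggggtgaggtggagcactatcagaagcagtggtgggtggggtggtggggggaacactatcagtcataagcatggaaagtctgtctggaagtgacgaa

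The start of Plet1os lies within the annotated span of Plet1, 10.3 kb from the start of Plet1, and the genes run towards each other's start. The starts of the Nxpe4 and Nxpe2 windows lie 21.1 kb apart and point away from each other, though the whole annotated span of Nxpe2 lies within that of Nxpe4, which reaches further upstream than its window. TATAAA is present in the Plet1 window, 30 bases before the start, and in reverse orientation in the Nxpe4 window, 20 bases before the start, and 13.6% of all 32851 RefSeq windows hold it. CCAAT in reverse orientation begins 13 bases before the start of Plet1os, 183 bases before that of Plet1, and 57 bases before and again at the start of Nxpe4 (37.4% of all windows). GATAAG is in reverse orientation in the Nxpe4 window (7.4% of all windows). GGGCGG is in none of the 4 windows and in 35.7% of all, and the Nxpe2 window holds none of the 4 motifs. The windows hold 2 CG pairs for Plet1os, 5 for Plet1, 1 for Nxpe4 and 4 for Nxpe2, against a median of 7.

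The arrays gave present calls for 57.55% to 60.13% of probe sets each. One of the 3 probe sets of Anp32a was absent on all 4 knockout arrays (4.60 ± 0.49) and present on all 4 wild-type arrays (9.88 ± 0.08). The other 2 stayed present on all 8 but read lower in knockout, with groups that did not overlap. Their differences were -0.45 and -0.51 (limma adjusted p = 0.0641 and 0.0555). No source used here says which part of the gene each probe set reads. The 8 cartilage markers examined were present on all 8 arrays. So were the 10 skeletal muscle markers, the 8 erythroid markers, the 8 neutrophil markers and the 7 measured bone markers. The mean level of the muscle list was 13.35 to 14.45 in knockout and 14.49 to 14.61 in wild type, and that of the erythroid list 10.02 to 11.52 in knockout and 9.21 to 10.85 in wild type. The B cell list, with 5 of 8 markers present on all 8 arrays and Pax5 absent on all, had a mean level of 8.30 to 9.02 in knockout and 7.91 to 8.22 in wild type, and the bone list one of 11.72 to 11.99 in knockout and 11.48 to 11.59 in wild type. Fewer cells of a type and less RNA per cell cannot be told apart in such whole-tissue samples. On the first principal component, knockout 4 lay at 11.9, near wild type 1 and wild type 2 at 10.7 and 9.88, while knockout 2 and knockout 3 lay at -44.0 and -44.5, so values without these arrays are given where they change a result.

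Plet1os was detected on no knockout array and on every wild-type array. Its 1 probe set, 1453552_at, read 3.88, 3.74, 3.88 and 3.89 on knockout arrays 1 to 4, against 6.51, 5.53, 6.30 and 6.60 on wild-type arrays 1 to 4. The groups lie 1.64 log2 units apart at their nearest, and wild type 2 was the lowest of its group. The mean was 3.85 ± 0.07 in knockout and 6.24 ± 0.49 in wild type, a difference of -2.39 (95% interval -2.83 to -1.94). Because the knockout arrays all carried an absent call, the 5.23-fold lower level in knockout is a bound set by the probe set's own dim values. It comes from the group means, so the interval just given still applies to it. The limma adjusted p by which it was picked is 0.00241 over all probe sets here, and 0.0582 when knockout 2 and 3 were left out. Absent or marginal calls on all 4 knockout arrays were found for 29 (0.123%) of the 23624 probe sets present on all 4 wild-type arrays, and among the named genes in this group with an adjusted p under 0.05 were Plet1os, Anp32a, Ppcdc and Rcn2.

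Plet1, on the other strand, was not detected by any of its 3 probe sets on any of the 8 arrays. The brightest, 1423934_at, read 6.15, 5.99, 6.07 and 6.22 on knockout arrays, against 5.89, 6.17, 6.09 and 6.03 on wild-type arrays. The groups overlap, with a difference of 0.064 (95% interval -0.12 to 0.25, limma adjusted p = 0.744). The middle one, 1423933_a_at, averaged 4.66 ± 0.17 in knockout and 4.81 ± 0.14 in wild type, a difference of -0.15 (95% interval -0.38 to 0.074, limma adjusted p = 0.468). For the dimmest, 1454254_s_at, the means were 4.44 ± 0.07 in knockout and 4.44 ± 0.18 in wild type (95% interval of the difference -0.20 to 0.21, limma adjusted p = 0.982). A signal called absent on every array bounds the level only, so these readings give no fold for Plet1.

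**Figure D1:**
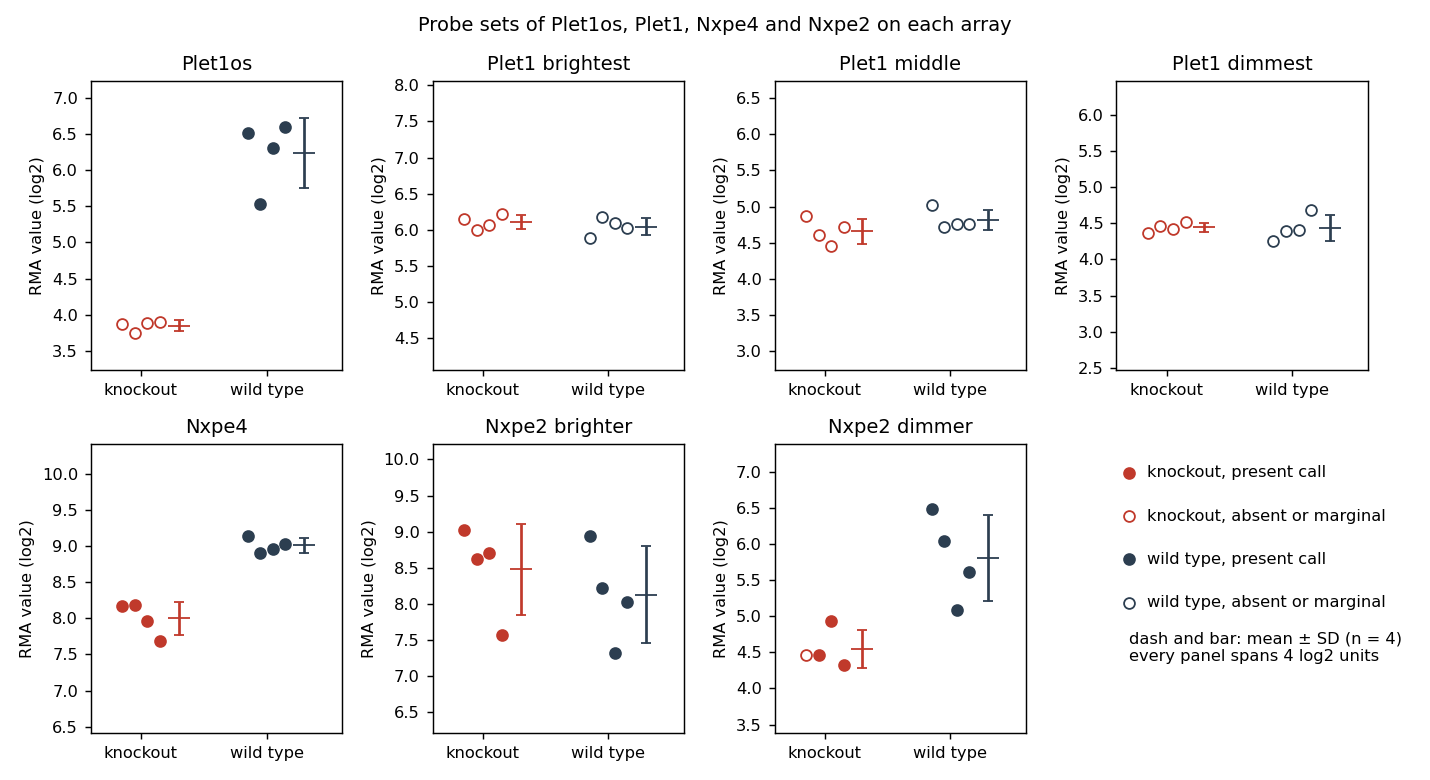
RMA values (log2, vertical axis) of the 7 probe sets on each of the 4 knockout and 4 wild-type arrays, with filled points for present calls, open points for absent or marginal calls, and a dash and bar for mean ± SD. Plet1os, Nxpe4 and the dimmer Nxpe2 probe set have groups that do not overlap, while the 3 Plet1 probe sets and the brighter Nxpe2 probe set overlap.

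Markers of skin and intestinal epithelium were in part undetected. Plet1 is known from the hair follicle, and Nxpe2 and Nxpe4 from the intestine. No list of trophoblast or thymic epithelium markers was examined. Of the 10 keratinocyte and epithelium markers, 4 (Krt14, Krt15, Krt1 and Sfn) were absent on all 8 arrays and 3 (Krt10, Trp63 and Perp) were present on all 8. Krt5, Epcam and Cdh1 were present on some arrays, Cdh1 on 3 knockout and 4 wild-type arrays. The mean level of this list was 6.24 to 6.28 in knockout and 6.10 to 6.37 in wild type. Of the 6 intestinal epithelium markers, 5 (Vil1, Cdx2, Krt20, Cdh17 and Muc2) were absent on all 8 arrays, and Lgals4 was present on all 8. This list's mean level was 5.52 to 5.65 in knockout and 5.48 to 5.61 in wild type. Dendritic cells can also carry Plet1. Of their 8 markers 7 were measured, 4 (Itgax, Flt3, Zbtb46 and Batf3) were present on all 8 arrays, and Ccr7 and Xcr1 were absent on all 8. The list's mean level was 6.98 to 7.31 in knockout and 6.88 to 6.97 in wild type.

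Nxpe4 was detected on all 8 arrays and read lower on every knockout array than on any wild-type array. Its 1 probe set, 1456111_at, read 8.17, 8.18, 7.97 and 7.69 on knockout arrays 1 to 4, against 9.14, 8.90, 8.96 and 9.03 on wild-type arrays 1 to 4. The highest knockout array, knockout 2, was 0.72 below the lowest wild-type array, wild type 2, and knockout 4 was the lowest of all. The means were 8.00 ± 0.23 in knockout and 9.01 ± 0.10 in wild type, a difference of -1.01 (95% interval -1.26 to -0.76), or 2.01-fold lower in knockout. Nxpe4 was picked by this contrast, with a limma adjusted p of 0.0133 over all probe sets. The adjusted p lay between 0.0604 and 0.0735 when knockout 3 or any 1 wild-type array was left out, while the difference stayed between -1.07 and -0.90 without any 1 array. Without knockout 2 and 3 together, the arrays lowest in muscle markers, it was -1.08 with a limma adjusted p of 0.082, and the part of muscle in this reading was not tested.

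The probe sets of Nxpe2 gave different readings. The dimmer, 1444471_at, read 4.47, 4.47, 4.93 and 4.32 on knockout arrays 1 to 4, against 6.49, 6.03, 5.09 and 5.61 on wild-type arrays 1 to 4. The groups do not overlap, though knockout 3 and wild type 3 were only 0.16 apart, and the single absent call among the 8 arrays was on knockout 1. The means were 4.55 ± 0.27 in knockout and 5.80 ± 0.60 in wild type, a difference of -1.26 (95% interval -1.84 to -0.68) that did not pass over all probe sets (limma adjusted p = 0.13). It passed without knockout 4 (-1.18, limma adjusted p = 0.0416), a fit that called 7.95% of all probe sets. Leaving out any other 1 array gave adjusted p from 0.114 to 0.28 by limma.

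The brighter Nxpe2 probe set, 1453220_at, was present on all 8 arrays and spread widely in both groups. It read 9.02, 8.62, 8.71 and 7.57 on knockout arrays 1 to 4, against 8.94, 8.23, 7.32 and 8.03 on wild-type arrays 1 to 4. Knockout 4 lay below 3 of the 4 wild-type arrays, knockout 2 and 3 lay above 3 of them, and knockout 1 lay above all 4. The means were 8.48 ± 0.63 in knockout and 8.13 ± 0.67 in wild type, a difference of 0.35 (95% interval -0.46 to 1.16, limma adjusted p = 0.673).

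Within each array the Nxpe2 probe sets lay further apart in knockout, and at a nearly fixed distance in wild type. The dimmer minus the brighter value was -4.55, -4.15, -3.78 and -3.25 on knockout arrays 1 to 4, against -2.46, -2.19, -2.23 and -2.42 on wild-type arrays 1 to 4. Knockout 4, the nearest, was 0.80 beyond the widest wild-type array. The means were -3.93 ± 0.55 in knockout and -2.33 ± 0.13 in wild type, -1.61 apart. In knockout the dimmer probe set spanned only 4.32 to 4.93, with an absent call at 4.47 on knockout 1. The distance there varied mainly with the brighter one, at 7.57 to 9.02, so dim values limit this comparison. Among the 13866 pairs of probe sets of 1 gene that were both present on all wild-type arrays, the groups did not overlap for 11% of pairs, so that parting of this kind is not rare on these arrays. No source used here says which part of the Nxpe2 transcript each probe set reads, and this comparison was chosen after the values were seen.

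The order of the arrays by the brighter Nxpe2 probe set followed the erythroid markers. Knockout 1 was highest in both, wild type 2, wild type 4, knockout 4 and wild type 3 held the last places in the same order in both, and the other 3 arrays differed by at most 2 places. The part of red cell precursors in this reading was not tested. The muscle list did not share the order: its lowest arrays, knockout 2 and knockout 3 at 13.35 and 13.77, held middle places for this probe set.

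**Figure D2:**
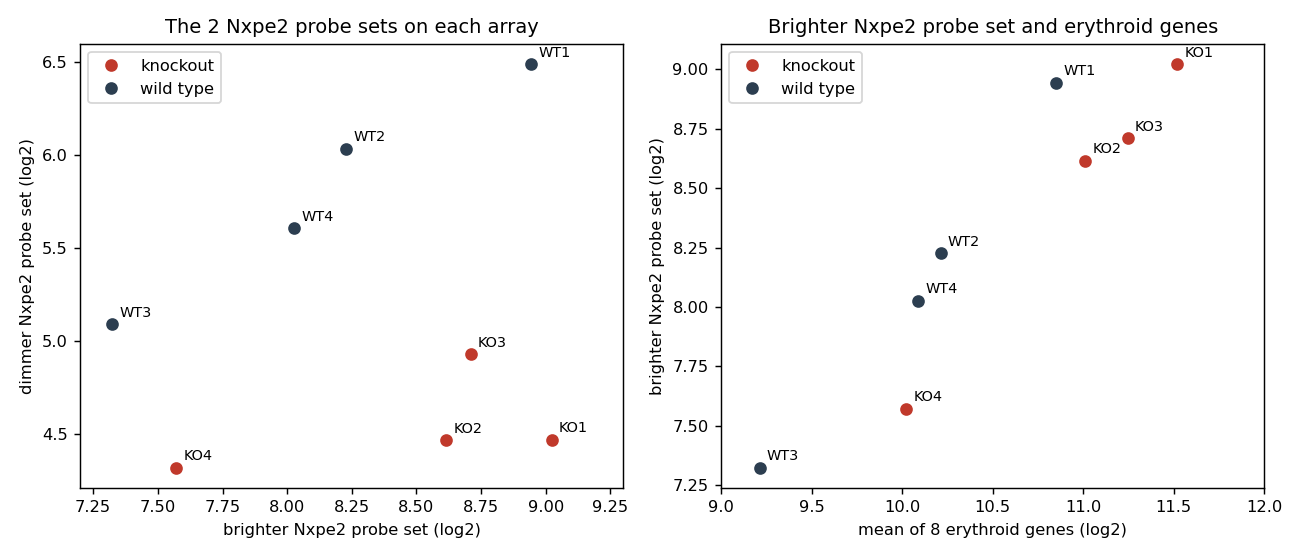
Left, the dimmer against the brighter Nxpe2 probe set (both log2) on each array, and right, the brighter probe set against the mean log2 level of 8 erythroid genes. On the left the 4 knockout arrays lie below the line along which the 4 wild-type arrays fall. On the right the arrays of both genotypes run upward, from wild type 3 at 9.21 and 7.32 to knockout 1 at 11.52 and 9.02. The knockout arrays lie lower there for their erythroid level.

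Of the 7 probe sets, 2 (Plet1os and Nxpe4) had an adjusted p under 0.05, both lower in knockout, against a background of 0.0333% of all probe sets called lower (15 of 45037), 0.02% called higher (9) and 0.0533% called in either direction (24). Nothing can be read from this count, since the contrast chose both. Groups that did not overlap were found for 3 of the 7, all lower in knockout, against 5.07% of all probe sets lower, 4.35% higher and 9.42% in either direction. The contrast chose Plet1os and Nxpe4 here too, so this share is a description, and among the other 5 probe sets only the dimmer of Nxpe2 had groups that did not overlap. The middle 90% of all probe sets had differences from -0.33 to 0.31, with a median of 0.0128. At the threshold itself, the last probe set inside had a limma adjusted p of 0.0493 and the first outside, of Cadm1, one of 0.0528.

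**Figure D3:**
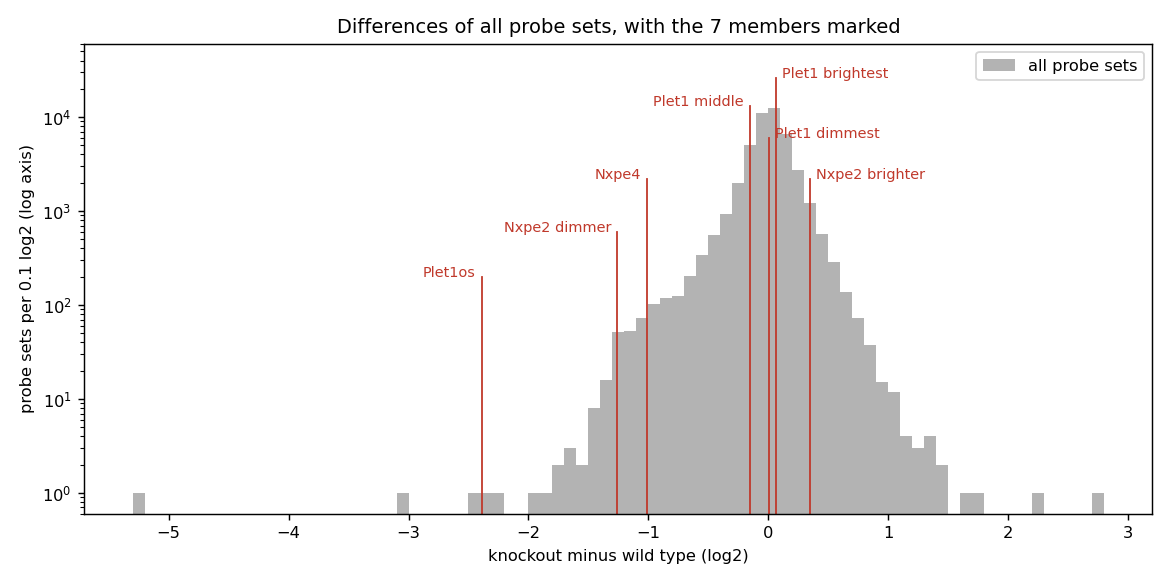
Number of probe sets (log axis) by knockout minus wild-type difference (log2) over all 45037 probe sets, with lines, of arbitrary height, at the 7 members. Plet1os at -2.39 lies far to the left, Nxpe4 at -1.01 and the dimmer Nxpe2 probe set at -1.26 lie on the left shoulder, and the Plet1 probe sets lie at the peak.

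Among the other genes of the neurexophilin family, none was called, which says little where 0.0533% of all probe sets were. The list of 9 genes had 7 on the arrays (Nxpe1-ps and Nxpe5 were not matched), of which Nxpe4 passed. Nxpe3, a relative on another chromosome, was present on all 8 arrays by its brighter probe set and averaged 7.96 ± 0.21 in knockout and 7.73 ± 0.22 in wild type, a difference of 0.24 with overlapping groups (limma adjusted p = 0.366). Its dimmer probe set gave 0.081 (limma adjusted p = 0.577) and no present call. Nxph1, Nxph2 and Nxph4, which encode secreted neurexophilins that bind neurexins in the nervous system, were absent on all 8 arrays, and Nxph3 had no present call. The differences of Nxph1 (3 probe sets), Nxph3 and Nxph4 lay between -0.096 and 0.073 with overlapping groups. Nxph2 read 3.77 ± 0.04 in knockout and 3.60 ± 0.05 in wild type, with groups 0.056 apart and both below detection (limma adjusted p = 0.191).

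Next to Plet1os in gene order, no gene was called. Only 0.0533% of all probe sets were called, so nothing about the neighbours can be read from this. The 10 genes with a probe set on each side, Plet1 among them, had 38 probe sets, with differences from -0.84 to 0.26 and a median of -0.0097, against 0.0128 over all probe sets. All of them lay nearer to 0 than Plet1os. In 8 of the 38 (21.1%) the groups did not overlap, against the 9.42% given above, and probe sets of a gene are not independent. Of these, 7 were lower in knockout: 3 of Zbtb16, a zinc finger transcription factor gene, and 1 each of Pts, Bco2, Sdhd and Timm8b.

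Bco2, a carotenoid-cleaving enzyme gene, read 5.10 ± 0.12 in knockout and 5.59 ± 0.10 in wild type with an absent call on all 8 arrays (-0.48, limma adjusted p = 0.097). Pts, a gene of tetrahydrobiopterin synthesis, read 9.31 ± 0.10 in knockout and 9.50 ± 0.08 in wild type (-0.19, limma adjusted p = 0.211). The mitochondrial genes Sdhd, a subunit of respiratory complex II, and Timm8b, a chaperone of mitochondrial protein import, gave -0.50 and -0.37 (limma adjusted p = 0.139 and 0.145). The brightest Zbtb16 probe set read 8.49 ± 0.60 in knockout and 9.18 ± 0.08 in wild type (-0.70, limma adjusted p = 0.185). Zw10, a kinetochore protein gene, was higher in its brightest probe set, with groups 0.0087 apart (0.21, limma adjusted p = 0.19). The muscle, B cell, bone and dendritic cell lists, whose levels are given above, also had groups that did not overlap, and their part in these readings was not tested. Without knockout 4, Zbtb16 (1 probe set, -0.99), Bco2 (-0.44), Sdhd (-0.57) and Timm8b (-0.45) passed, with limma adjusted p from 0.0257 to 0.0464. These were 4 of the 38 probe sets (10.5%) in a fit that called 7.95% of all.

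Next to Nxpe4, Cadm1 was called in the opposite direction. Cadm1, which encodes an immunoglobulin-type cell adhesion molecule, is the next gene with a probe set outside the annotated span of Nxpe4 on its lower-coordinate side. Its probe set 1417378_at read 11.36 ± 0.18 in knockout and 10.58 ± 0.11 in wild type (0.78, limma adjusted p = 0.0277), and the other 3 gave 0.80, 0.77 and 0.48 with groups that did not overlap either (limma adjusted p = 0.0706, 0.0528 and 0.145). The call of Cadm1 was lost without any 1 array other than knockout 1 and knockout 4. The 20 genes around Nxpe4, Nxpe2 among them, had 37 probe sets with a median difference of 0.024 and a range of -1.26 to 0.80. Of these, 1 gene was called, by 1 probe set, against 0.0533% of all probe sets.

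Groups did not overlap for 12 of these 37 probe sets (32.4%), against 9.42% of all probe sets, 7 higher and 5 lower in knockout (4.35% and 5.07% of all). The 7 were the 4 of Cadm1 and 1 each of Zpr1, Zw10 and the gene model Gm5617. The 5 were 1 of Nxpe2, 1 of Nnmt and the 3 of Zbtb16 given above, and the lists around Plet1os and Nxpe4 share 5 genes. Nnmt, the gene of nicotinamide N-methyltransferase, averaged 8.56 ± 0.37 in knockout and 9.37 ± 0.15 in wild type (-0.81, limma adjusted p = 0.13). It passed without knockout 4 (-0.98, limma adjusted p = 0.0155), in a fit that called 6 of these 37 probe sets (16.2%) and 7.95% of all. Among the 6 were the Cadm1 probe sets 1417376_a_at, 1417377_at and 1417378_at (limma adjusted p = 0.021, 0.0196 and 0.0173). Gm5617 read 8.65 ± 0.21 in knockout and 8.25 ± 0.12 in wild type (0.40, limma adjusted p = 0.147). The dimmer Zpr1 probe set gave 0.16 (limma adjusted p = 0.359). The brighter, 1419281_a_at, present on all 8 arrays, gave -0.0019 with overlapping groups (limma adjusted p = 0.993). The 4 apolipoprotein genes at the far end, Apoa1, Apoc3, Apoa4 and Apoa5, had overlapping groups in every probe set.

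**Figure D4:**
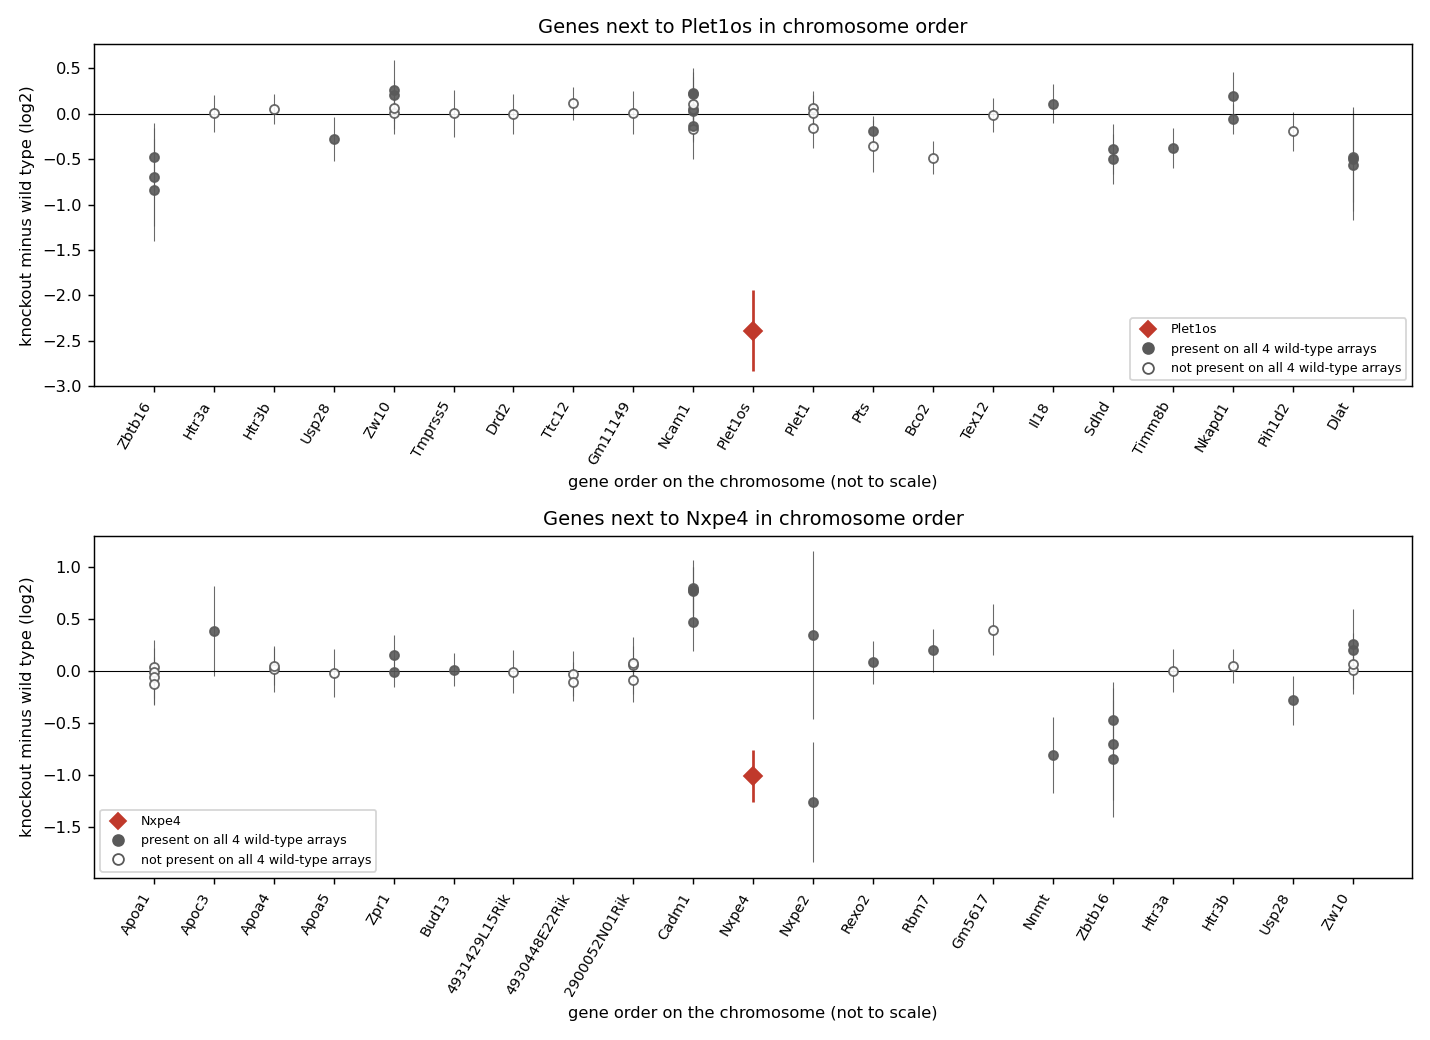
Knockout minus wild-type difference (log2, with 95% intervals) of every probe set of the 10 genes on each side of Plet1os (top) and of Nxpe4 (bottom), ordered by the midpoint of their annotated spans and not to scale. Plet1os at -2.39 stands apart from its neighbours, whose probe sets lie between -0.84 and 0.26, while around Nxpe4 the 4 Cadm1 probe sets lie above 0 and those of Nxpe2 on either side of it.

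Likeness of pattern was measured as the root mean square difference over the 8 arrays between log2 values centred on their own mean. It was taken over 20869 probe sets (20868 for Nxpe2) with a symbol and a present call on all wild-type arrays. Since the arrays share the genotype split, it says mainly that a probe set parts the groups by a like amount. The probe set nearest to Plet1os belonged to Ppcdc, an enzyme gene of coenzyme A synthesis (0.306, against a median of 1.25), then came a gene model with an incomplete symbol (0.502) and the dimmer probe set of Atm, a DNA damage kinase gene (0.514). Nearest to Nxpe4 were Dapk2, a death-associated kinase gene (0.187), and the heat shock genes Hsph1 (0.229) and Hspa1b (0.257). The dimmer Nxpe2 probe set had Dapk2 (0.364), Atm (0.376) and Nxpe4 itself (0.409) nearest. The brighter one had a different set, at shorter distances: Tubb1, a tubulin gene of platelets and their precursors (0.111), AI661384 (0.115) and Slc14a1, the urea transporter gene of red cells (0.119).

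**Figure D5:**
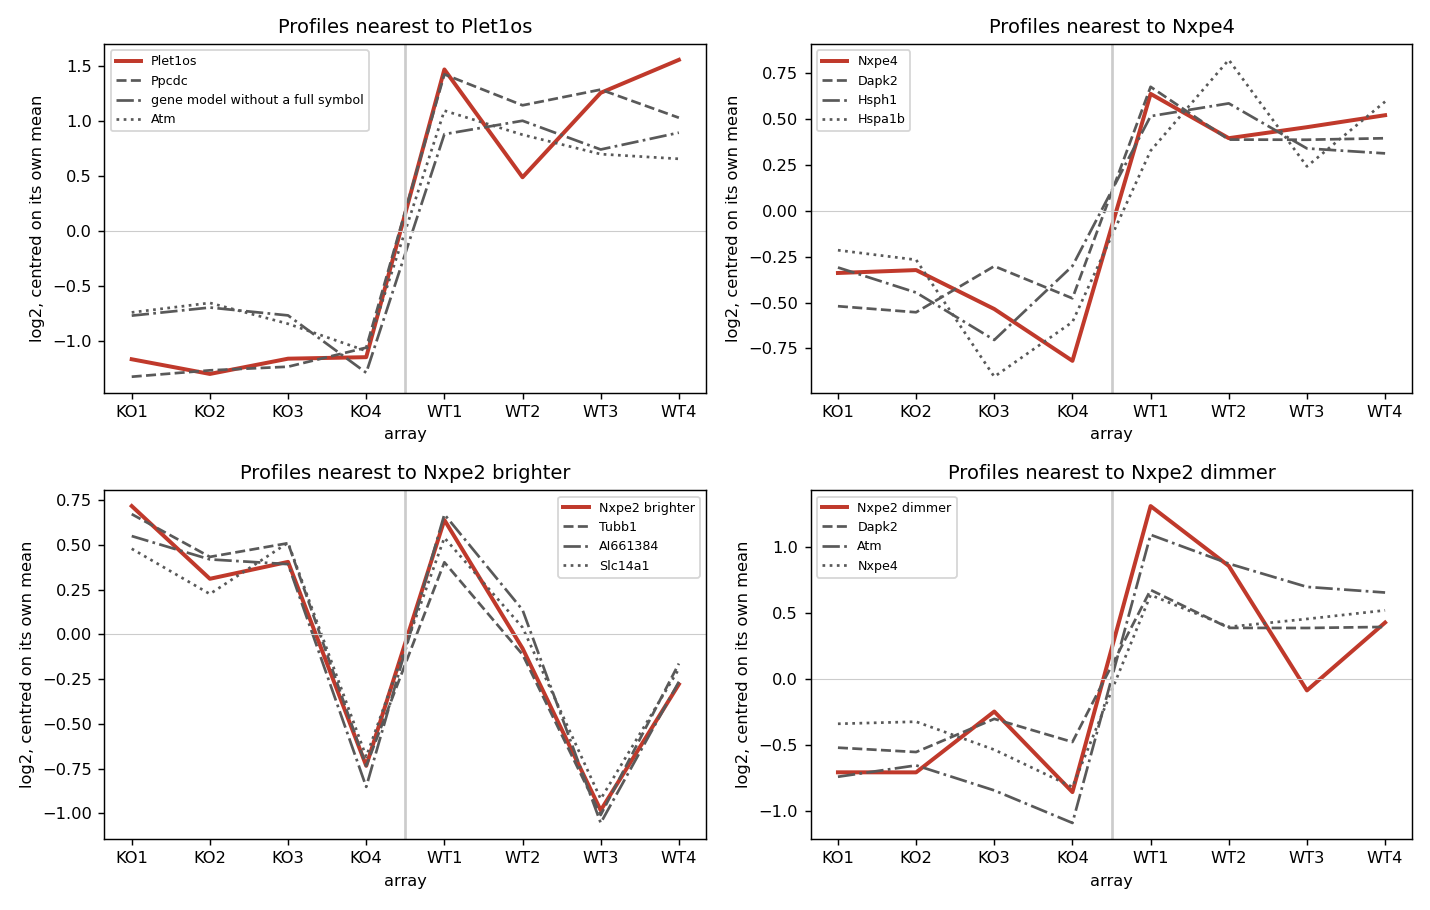
Log2 values on each array, centred on their own mean, of Plet1os, Nxpe4 and both Nxpe2 probe sets (red) with the 3 probe sets of other genes nearest to each (grey). Plet1os, Nxpe4 and the dimmer Nxpe2 probe set step up between the knockout and the wild-type arrays, while the brighter Nxpe2 probe set and its nearest profiles dip at knockout 4 and wild type 3.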

How the data were processed

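RNA from 8 samples was measured on 1 microarray each. Per the labels' protocols, 2 µg of total RNA was amplified to biotin-labelled cRNA by the Affymetrix protocol. The deposited tables hold RMA-made log2 values, 1 per probe set and array, per the submitters' processing notes. RMA brings arrays to a like distribution, with medians here from 6.89 to 6.92, so a shift shared by most genes would not be seen. The authors' deposited table also gives detection calls, a log2 fold change and p-values, per the file headers. Its log2 fold changes and p-values were recomputed, and log10 p differed by at most 0.00114. Of its rows, 64 without an identifier were not used, and 6889 probe sets without a symbol and 62 with a date in its place were left unnamed.

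All 45037 probe sets were compared by limma 3.58.1 under R 4.3.3 (two-sided moderated test from lmFit with eBayes, genotype only), with Benjamini-Hochberg adjustment over all of them and a threshold of 0.05. Precision is limited by the number of arrays, and the p-values cover only the spread among these 8 samples. On simulated data over 45037 probe sets the test recovered 26 of 50 changes of 0.5 log2, 46 of 50 of 0.75, 47 of 50 of 1 and 48 of 50 of 2, with 9 false calls among 176. The simulated noise was drawn independently for each probe set and array. The real arrays share variation across probe sets, with 52.83% of variance on the first principal component, so these rates need not hold for them.

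The members and lists were chosen with earlier results of these data known. Named genes are the members, Anp32a, the neurexophilin family, neighbours that were called or had groups that did not overlap, and the 3 genes nearest in pattern; other neighbours are counted, and Apoa1, Apoc3, Apoa4 and Apoa5 were named after their values were seen. A fold against a group called absent on every array is a bound, computed with each dim value raised, where lower, to the lowest present-called value of its array. Genes were ordered by the midpoint of their span in the RefSeq annotation of GRCm38.p6; the files name no build. Marker lists used the brightest probe set of each gene. Alternatives were each array left out, a replicate block, quantile normalization, array weights, a filter on present calls, probe sets merged by gene, the other deposited table and knockout 2 and 3 left out.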

Additional observations from a re-analysis of the deposited data

Results flagged for a closer look

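For Plet1os, knockout 2 lay apart from the other knockout arrays, at 3.74 against 3.88 to 3.89, a gap of 0.876 of the group's range. All 4 arrays carried an absent call. Of the 14 groups of 4 arrays examined this was the only one past the 95% critical value of Dixon's gap test, and chance flags about 1 in 20 groups.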

How the results depend on the processing

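The differences of Plet1os and Nxpe4 kept their sign and moved by less than the spread between replicates in all 15 alternatives, from -2.62 to -2.27 and from -1.07 to -0.90 with any 1 array left out. Merging by gene could not move them, since each has 1 probe set, nor could the balanced replicate block. The other deposited table gave the same differences, and every alternative reused the arrays that picked both genes. With any 1 array left out, the dimmer Nxpe2 probe set ranged from -1.50 to -1.03, the brighter from 0.081 to 0.65, and the Plet1 probe sets from 0.013 to 0.11 (brightest), -0.22 to -0.086 (middle) and -0.054 to 0.088 (dimmest). Array weights gave -0.021 for the dimmest Plet1 probe set and 41 probe sets called, against 24. Averaging a gene's probe sets gave -0.45 for Nxpe2 and -0.027 for Plet1, and the brightest alone 0.35 and 0.064, since merging replaces readings that part. The number of called probe sets was 9 to 3579 with any 1 array left out, the highest without knockout 4; the cause was not tested. Called neighbour genes then numbered 0 to 4 around each locus. The array numbers 1 to 4, with no pairing stated, were fitted as a replicate block. Deviations of same-numbered arrays correlated at 0.065, 0.511, -0.339 and 0.303, only knockout 2 correlating best with its own number. So few correlations cannot tell whether same-numbered arrays share more than a number. The block left the differences as they were, at -2.39 for Plet1os, -1.01 for Nxpe4 and -1.26 for the dimmer Nxpe2 probe set, with 21 probe sets called and 0 neighbours of Nxpe4. Absent calls limit Plet1 and Plet1os to bounds.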

Other observations

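The brighter Nxpe2 probe set ordered the arrays much as the erythroid markers did, and its distance to them parted the genotypes. Its value minus the mean of the 8 erythroid markers was -2.50, -2.39, -2.54 and -2.45 on knockout arrays 1 to 4, against -1.91, -1.99, -1.89 and -2.06 on wild-type arrays 1 to 4. The groups did not overlap, with means of -2.47 ± 0.06 in knockout and -1.96 ± 0.08 in wild type, -0.51 apart (SD, n = 4 each), while the probe set's own values overlapped. By this distance the groups did not overlap for 81 of all 45037 probe sets lower in knockout (0.18%) and for 6 higher (0.0133%). Subtracting these markers widens the spread of a probe set that does not follow them, so these shares do not measure how rare the parting is. The erythroid mean was itself 0.86 higher in knockout, and the probe set 0.35 higher, so the distance cannot be assigned to Nxpe2 alone. Of the 8 erythroid markers, 1 also parted. The comparison was chosen after the values were seen and has no test.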
